A study of Mus musculus with 4 samples.

Results

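The cytochrome P450 genes measured in whole lung are described here. Members were taken by symbol, as every gene whose symbol is Cyp followed by a number, letters and a number, which gave 92 of the 23284 genes in the deposited tables. Cyp51, pseudogenes and symbols ending in a letter (Cyp4a12a, for example) are not matched by that pattern.

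P450 enzymes are haem proteins of the endoplasmic reticulum and mitochondria that insert an oxygen atom into their substrates with electrons passed on by partner reductases. Families CYP1 to CYP4 mostly act on foreign chemicals, fatty acids and eicosanoids, while the higher-numbered families mostly act on steroids, bile acids, oxysterols, retinoids and vitamin D. In rodent lung the club cells of the small airways are a main site of xenobiotic oxidation, and their P450s, CYP2F2 above all, activate toxicants such as naphthalene.

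RNA was sequenced from lungs of C57BL/6 mice, with 1 library for each of 4 groups. Wild-type mice and IL22-/- mice, which lack the cytokine interleukin-22 (IL-22), received the allergen house dust mite (HDM) for sensitization and again as a challenge, and were sampled 48 h after the last dose. The other pair came from wild-type mice given recombinant IL-22 or buffered saline (PBS) into the trachea 24 h earlier, with no allergen named in the labels. The sources used here do not give the mice's age and sex, the design of the Il22 allele or whether a library was 1 animal or a pool. With 1 library per group there is no replicate check of any difference and no test was made. The values are FPKM, fragments scaled to transcript length and sequencing depth, so that levels of different genes are compared per length. The HDM pair and the PBS and IL-22 pair stand in 2 tables that may have been normalized separately, and levels across the tables are set side by side only. A difference is that of log2(FPKM + 1) within a table, which understates the change of low genes. A gene counts as expressed in a table at a mean FPKM of at least 1 there, and as higher or lower where the size of its difference reaches 1.

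The libraries held an estimated 19.99 to 28.87 M reads (M for 1000000), from the whole-read steps of low FPKM values. Il22 was at 0.362 FPKM in the wild-type HDM library and was listed at 0 in the other 3 libraries. A value of 0 thus does not tell the knockout from wild-type mice given PBS or IL-22. The tissue label matched its markers, with the alveolar type II gene Sftpc at 30749 to 37820 FPKM and the club cell gene Scgb1a1 at 112693 to 141280. Hepatocyte markers were included since liver is rich in P450 RNA. Of the 10, Trf, which is not confined to liver, was at up to 224 FPKM, the albumin gene Alb was at 0.397 to 0.678, Ahsg and Apoa2 were the only others to reach 1 FPKM, and Ttr and Fgb were listed at 0 in all 4 libraries.

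The start regions of 4 P450 genes are shown first: those of the 3 most abundant P450 transcripts, Cyp2f2, Cyp4b1 and Cyp2b10, and that of Cyp1a1, chosen after its values were seen because its difference was the largest in size in both tables. Each is 300 bases of RefSeq promoter sequence on GRCm38.p6 (mm10), 250 bases before and 50 from the start site, read along the gene's strand. Capitals mark motifs on either strand, found without regard to overlap between them. One is GCGTG, the core bound by the aryl hydrocarbon receptor. The TATA box was searched as TATAAA. The letters of the CAAT box were CCAAT. A forkhead motif was searched as TGTTTAC. Its other form was TATTTAC. The windows are chr7:27119705-27120004 (plus strand) for Cyp2f2, chr4:115647672-115647971 (minus strand) for Cyp4b1, chr7:25897408-25897707 (plus strand) for Cyp2b10 and chr9:57697363-57697662 (plus strand) for Cyp1a1.
Cyp2f2: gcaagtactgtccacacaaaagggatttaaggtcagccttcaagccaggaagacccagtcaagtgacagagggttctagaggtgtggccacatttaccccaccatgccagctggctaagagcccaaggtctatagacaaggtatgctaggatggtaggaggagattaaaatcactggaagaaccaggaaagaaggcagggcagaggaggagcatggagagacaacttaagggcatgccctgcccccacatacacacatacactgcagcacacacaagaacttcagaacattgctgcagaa
Cyp4b1: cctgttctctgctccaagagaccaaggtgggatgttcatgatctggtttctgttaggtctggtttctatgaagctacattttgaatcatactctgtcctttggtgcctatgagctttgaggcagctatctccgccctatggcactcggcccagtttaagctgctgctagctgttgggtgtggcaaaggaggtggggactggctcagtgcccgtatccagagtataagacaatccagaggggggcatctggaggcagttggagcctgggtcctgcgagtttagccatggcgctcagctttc
Cyp2b10: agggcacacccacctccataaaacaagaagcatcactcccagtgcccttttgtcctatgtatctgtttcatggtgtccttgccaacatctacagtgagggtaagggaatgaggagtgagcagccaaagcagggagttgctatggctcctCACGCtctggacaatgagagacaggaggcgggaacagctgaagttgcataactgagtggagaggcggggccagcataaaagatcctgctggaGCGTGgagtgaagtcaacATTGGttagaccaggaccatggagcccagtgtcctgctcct
Cyp1a1: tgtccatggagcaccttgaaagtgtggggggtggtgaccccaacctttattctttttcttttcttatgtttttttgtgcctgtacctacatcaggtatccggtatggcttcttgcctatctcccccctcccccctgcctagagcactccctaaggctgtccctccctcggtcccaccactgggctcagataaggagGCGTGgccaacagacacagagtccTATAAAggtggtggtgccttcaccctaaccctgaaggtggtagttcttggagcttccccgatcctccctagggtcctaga

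The Cyp1a1 window held GCGTG 54 bases and TATAAA 30 bases before the start site. That of Cyp2b10 held GCGTG letters 101 bases before the start site on the minus strand and 9 bases before it on the plus strand, and a CCAAT on the minus strand in the first 50 bases. No motif of the set was found in the windows of Cyp2f2 and Cyp4b1. Promoters of 71 members were in the table, with 81 start sites. TATAAA stood in 32 of the 81 (39.5%), against 13.6% of all 32851 promoters of this length, and the forkhead motifs in 11 (13.6%) against 6.5%. GCGTG stood in 17 (21.0%) against 32.4% of all promoters, and CCAAT in 38 (46.9%) against 37.4%. Among the 23 promoters of expressed members TATAAA stood in 6 (26.1%) and CCAAT in 10 (43.5%). The forkhead motifs stood in only 1 of these 23 (4.3%), and GCGTG in 8 (34.8%), on the other side of the shares of all promoters. Some of the 81 windows overlap one another. P450 promoters were also poor in the dinucleotide CG. They had a median of 3 per window, where the median of all promoters was 7. Of 23 promoters of expressed P450 genes 6 (26.1%) had at least 10 CG, where 43.5% of all promoters did. They were those of Cyp20a1, Cyp2s1, Cyp4v3, Cyp1b1, Cyp4f39 and Cyp27a1. Among 26 promoters of P450 genes listed at 0 in every library the highest count was 6. These matches describe letters in the windows only.

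Most P450 genes were silent or nearly so in lung. Of the 92 members 27 were listed at 0 in all 4 libraries and 51 were above 0 in all 4. Expressed members numbered 27 in the HDM table and 27 in the other, 26 of them in both, and 64 members were expressed in neither. Of all 23284 genes, 13285 and 13233 were expressed in these tables by the same rule. The CYP2 family, with 49 members, had 11 expressed in a table, and the CYP4 family had 8 of 15. CYP1 had 2 of 3 (Cyp1a1 and Cyp1b1), CYP3 had 1 of 7 (Cyp3a13) and the families from CYP7 to CYP46 had 6 of 18. Just inside the expression threshold of the HDM table were Cyp8b1 and Cyp4f17, with mean FPKM of 1.06 and 1.20, and just outside it Cyp2c44 and Cyp2r1, with 0.813 and 0.674. In the other table Cyp2c44 and Cyp4f39 lay just inside at 1.01 and 1.49, and Cyp8b1 and Cyp2u1 just outside at 0.959 and 0.567.

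**Figure D1:**
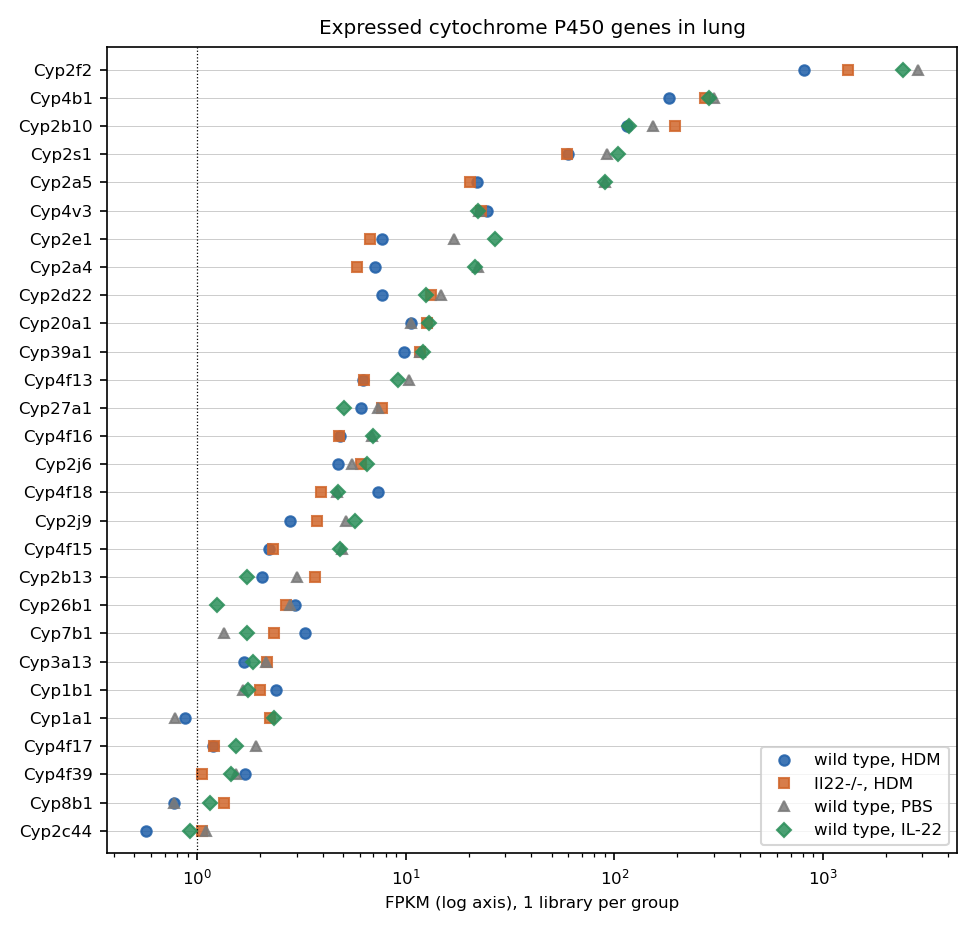
FPKM of the 28 P450 genes expressed in at least 1 table, on a log axis, with 1 point per library and a dotted line at 1 FPKM. Cyp2f2 stands above every other P450 gene in all 4 libraries, from 813 to 2869 FPKM.

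Cyp2f2 (chromosome 7, 27119909 to 27133660, protein coding) was the leading P450 transcript in each library. Its level was 813 FPKM for wild type and 1322 for the knockout after HDM, 2869 with PBS and 2429 with IL-22. The PBS and IL-22 libraries were thus both listed above both HDM libraries, across tables. Cyp4b1 (chromosome 4, 115624725 to 115647723), which oxidizes fatty acids and activates the pneumotoxin 4-ipomeanol, was next in every library. Its levels were 183 and 273 FPKM in the wild-type and knockout HDM libraries and 300.5 and 284 with PBS and IL-22. Cyp2b10 (chromosome 7, 25897620 to 25926624), the classical target of the nuclear receptor CAR in liver, was at 115, 195, 153 and 117 FPKM in the same order. Cyp2s1 (chromosome 7, 25802475 to 25816913), an epithelial P450, was at 59.8, 59.2, 91.9 and 104 FPKM, and Cyp2a5, which hydroxylates coumarin, at 22.0, 20.3, 90.5 and 90.0. Its near copy Cyp2a4, a steroid 15-alpha-hydroxylase, was at 7.11, 5.86, 22.2 and 21.6 FPKM. Both Cyp2a genes thus differed little within each table, and their values in the PBS and IL-22 pair were listed above those in the HDM pair. Cyp4v3, a fatty acid hydroxylase, was nearly level at 24.6, 23.0, 22.5 and 22.2 FPKM. The other expressed members lay between 0.567 FPKM (Cyp2c44 in the wild-type HDM library) and 26.8 (Cyp2e1 with IL-22).

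Summed over the 92 members, P450 FPKM came to 1316 for wild type and 2001 for the knockout after HDM, 3669 with PBS and 3194 with IL-22. This was 0.193%, 0.297%, 0.533% and 0.499% of each library's total FPKM. Cyp2f2 made up 61.8%, 66.1%, 78.2% and 76.0% of these sums. Without it the remaining members summed to 503, 679, 800.1 and 765 FPKM. In whole tissue, fewer cells of a type and less RNA per cell cannot be told apart.

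**Figure D2:**
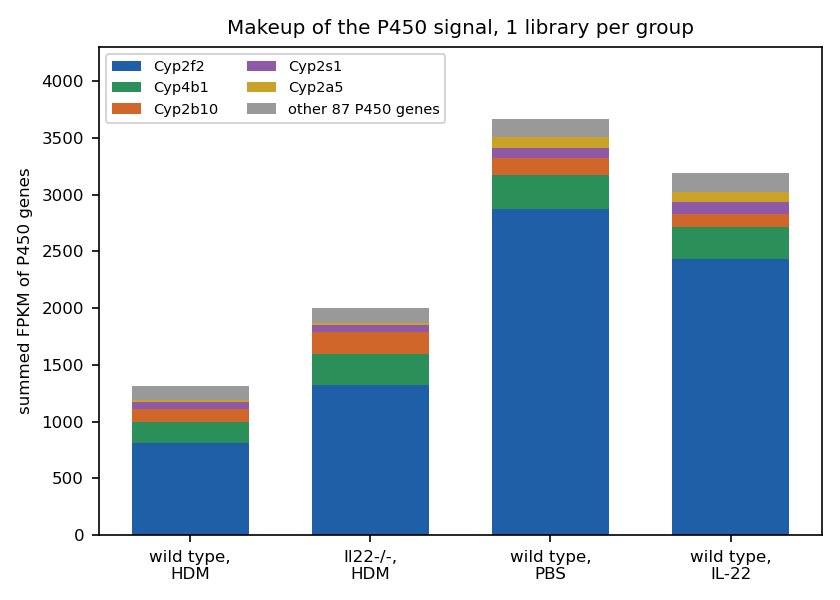
Stacked bars of summed FPKM of the P450 genes in each library, from 0, with the 5 most abundant members in colour and the other 87 in grey. Cyp2f2 forms the largest block in each bar, 61.8 to 78.2% of it.

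Expressed and silent members lay side by side in the genome. The cluster on chromosome 7 (25802475 to 27158668, members within 1 Mb of the next) held 13 members of the Cyp2a, 2b, 2f, 2g, 2s and 2t subfamilies, 6 of them expressed. The members next to Cyp2f2 in this cluster, Cyp2a12 and Cyp2t4, were at 0.0410 to 0.106 and 0.152 to 0.244 FPKM. Another 13 members, the Cyp2c genes of chromosome 19 from 39007019 to 40187333, were listed at 0 in every library, and the 6 Cyp3a genes of chromosome 5 from 145345279 to 146113287 summed to at most 0.0527 FPKM. Cyp3a13 lies on the same chromosome outside that cluster. The only Cyp2c gene expressed was Cyp2c44 (Cyp2c23 in the annotation, chromosome 19, 44005022 to 44029208), an arachidonate epoxygenase outside that cluster. Of 8 Cyp2d genes on chromosome 15 only Cyp2d22 was expressed, and of 7 Cyp4f genes on chromosome 17 there were 5.

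**Figure D3:**
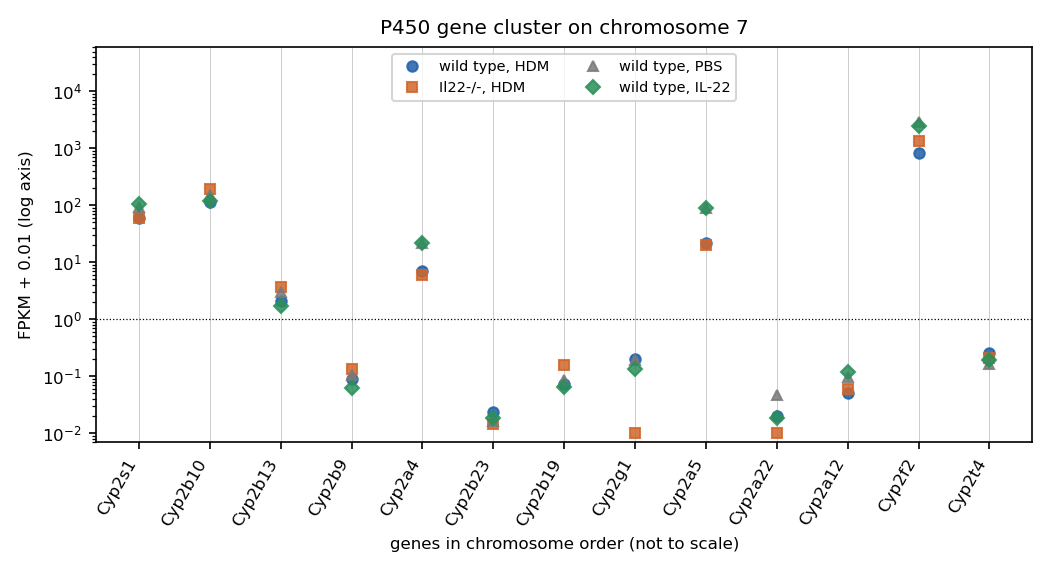
FPKM + 0.01 on a log axis for the 13 P450 genes of the chromosome 7 cluster, in gene order and not to scale, with 1 point per library and a dotted line at 1 FPKM. The 6 expressed genes stand above the line and the others below it.

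Near-identical copies limit some of these values. Of 90 members matched to a GENCODE M21 transcript, 35 shared over 10% of their 50-base words with a transcript of another gene, 5 of them among the 28 expressed. Among the expressed, Cyp2a4 and Cyp2a5 shared most, with 38.0% and 40.8% of words found elsewhere, mainly in each other. For Cyp2b13 the share was 27.3%, for Cyp4f16 25.8% and for Cyp4b1 10.3%, while Cyp2f2, Cyp2s1 and Cyp26b1 shared none. The sources used here do not say how the authors' counting split such reads, so the levels of Cyp2a4, Cyp2a5, Cyp2b13 and Cyp4f16 are uncertain.

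The knockout and wild-type HDM libraries were compared for the effect of Il22 loss on lung RNA under allergen. No P450 gene was higher or lower by the size rule among the 27 expressed in this table, where 2.97% of all 13285 expressed genes were (0.549% higher and 2.42% lower). The P450 median was 0.05, beside 0.03 for all genes, and 16 of the 27 lay above 0, as did 53.9% of all genes. At a smaller size of 1.5-fold, taken on FPKM + 1 values, 5 were higher and 1 was lower, against 3.23% and 6.41% of all genes. By plain FPKM ratio Cyp8b1 (1.72) and Cyp4f39 (0.622) also passed 1.5-fold but are not in these counts. The 6 members nearest to the size rule were Cyp1a1, Cyp4f18, Cyp2b10, Cyp2d22, Cyp2f2 and Cyp2b13, and only Cyp4f18 among them was lower in the knockout.

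The 3 most abundant P450 transcripts stood higher in the knockout HDM library, short of the size rule. Cyp2f2 had a difference of 0.70 (813 against 1322 FPKM), a ratio of 1.62. Cyp2b10 had a difference of 0.75 and Cyp4b1 one of 0.58. Cyp2d22 (chromosome 15, 82370527 to 82380260), the only expressed Cyp2d gene, was at 7.66 against 13.3 FPKM in the knockout, a difference of 0.72. Cyp2b13, which shares sequence with its neighbours, was at 2.05 against 3.68. Other abundant members of the family did not stand apart in this way: Cyp2s1 had a difference of -0.01, Cyp2a5 of -0.11 and Cyp4v3 of -0.09. Cyp3a13, the only expressed Cyp3a gene, was at 1.67 against 2.15 FPKM. The expressed Cyp2j genes, Cyp2j6 and Cyp2j9, had differences of 0.32 and 0.33.

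Club cell markers moved unevenly beside Cyp2f2. Of 9 expressed markers 6 lay above 0 and none passed the size rule, with a median of 0.06. The carbonyl reductase gene Cbr2 had a difference of 0.68, with 2727 FPKM against 4375 in the knockout, while Scgb1a1 had one of 0.03 and Kcne3 one of -0.87. The summed level of the club cell list was 130088 FPKM against 135220 in the knockout, nearly all of it Scgb1a1 (124426 and 127473). Goblet cell markers were lower in 6 of 8, with a median of -1.86 and a summed level of 1580 against 400 FPKM, and all 8 ciliated cell markers lay below 0 (median -0.22). The part of cell makeup in the P450 differences was not tested.

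Cyp4f18 (chromosome 8, 71988482 to 72009626), which oxidizes leukotriene B4 in neutrophils and other leukocytes, was at 7.36 FPKM against 3.91 in the knockout, a difference of -0.77. In the other table it was at 4.66 FPKM with PBS and 4.71 with IL-22. Between the HDM libraries 6 of 12 markers of monocytes and interstitial macrophages were lower and all 12 lay below 0. Their summed level was 617 against 268 FPKM. With IL-22 9 of the 12 lay above 0 and 3 below (median 0.34), with a summed level of 325 against 524 FPKM. Their part in the value of Cyp4f18 was not tested. Other Cyp4f genes, Cyp4f13, Cyp4f15, Cyp4f16 and Cyp4f17, had differences from -0.02 to 0.05, and Cyp4f39, known for skin ceramide synthesis, was at 1.70 against 1.06 FPKM.

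No member of the CYP7 to CYP46 families passed the size rule between the HDM libraries. Cyp7b1, the oxysterol 7-alpha-hydroxylase, was at 3.30 FPKM against 2.34 in the knockout, a difference of -0.36, and the sterol 27-hydroxylase Cyp27a1 was at 6.13 against 7.71. Cyp39a1, another oxysterol 7-alpha-hydroxylase, and Cyp20a1, an orphan enzyme, both had a difference of 0.24. Cyp8b1, the sterol 12-alpha-hydroxylase, was at 0.777 against 1.34 FPKM, and its estimated 34 and 64 reads gave a depth-corrected ratio of 1.72, with an exact 95% counting interval of 1.12 to 2.69. For Cyp7b1 this ratio was 0.711 (0.559 to 0.903). The retinoic acid hydroxylase Cyp26b1 was at 2.96 against 2.66 FPKM.

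**Figure D4:**
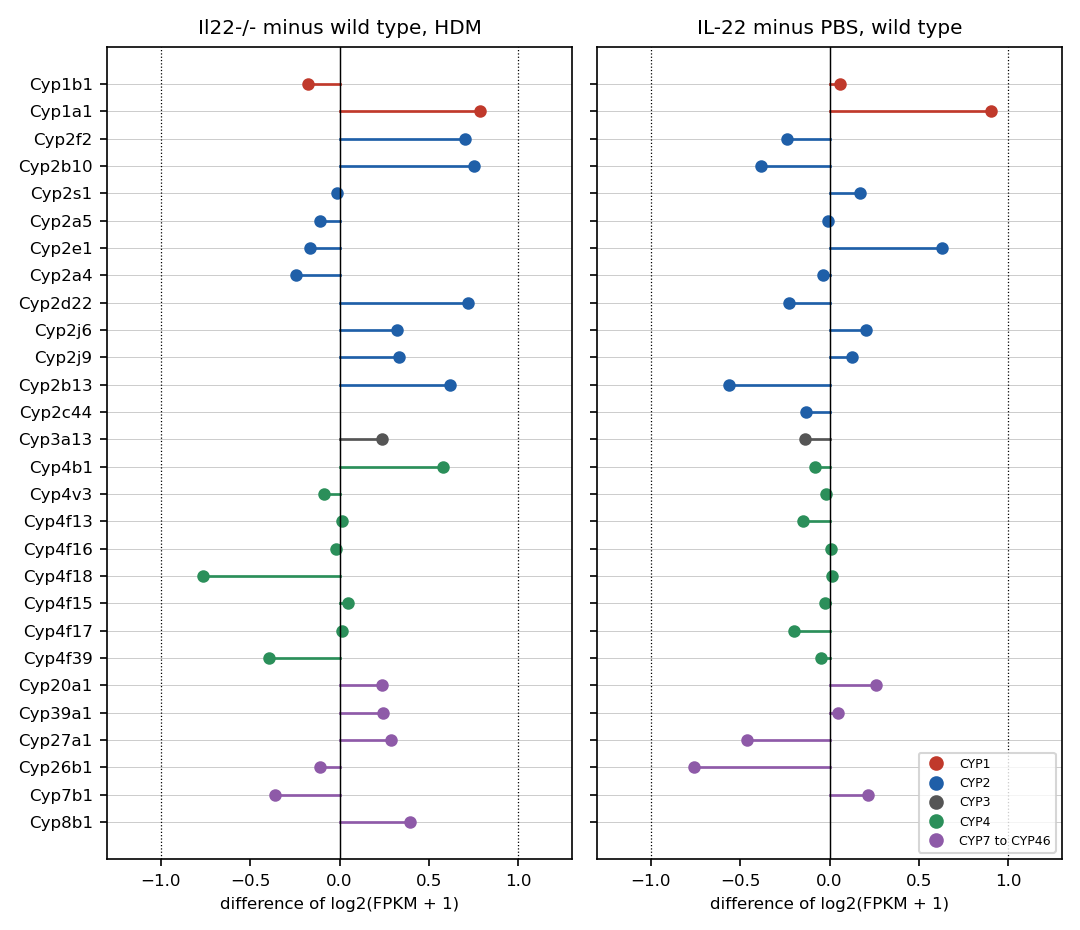
Difference of log2(FPKM + 1) for each expressed P450 gene, in the HDM pair (left) and the PBS and IL-22 pair (right), coloured by family, with dotted lines at the size rule of 1. No gene reaches a dotted line in either table, and Cyp1a1 comes nearest in both, at 0.78 and 0.90.

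The IL-22 and PBS libraries were compared for the effect of the cytokine in lungs with no allergen named in the labels. Again no P450 gene passed the size rule among 27 expressed, beside 0.786% of all 13233 expressed genes (0.597% higher and 0.189% lower). The P450 median was -0.03 where that of all genes was 0.04 (0.06 and 0.13 with scaling to a common total). Only 11 of the 27 lay above 0, whereas 58.6% of all genes did. At 1.5-fold, again taken on FPKM + 1 values, 2 were higher and 1 was lower, against 1.96% and 0.461% of all genes. By plain FPKM ratio Cyp2b13 (0.570) also passed 1.5-fold but is not in these counts. Cyp1a1, Cyp26b1 and Cyp2e1 were nearest to the size rule.

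Cyp1a1 (chromosome 9, 57687928 to 57703824), the classical target of the aryl hydrocarbon receptor, was at 0.784 FPKM with PBS and 2.34 with IL-22. In the HDM table the wild type was at 0.875 FPKM and the knockout at 2.23. The library given IL-22 and the library without Il22 were thus the high ones of their tables. These levels are an estimated 39 and 166 reads with PBS and IL-22, a depth-corrected ratio of 2.95 whose exact 95% binomial interval is 2.07 to 4.29. In the HDM pair they are 54 and 150 reads, a ratio of 2.54 (1.85 to 3.53). Such intervals cover counting error only and compare these libraries, not the genotypes or treatments. Cyp1b1, another target of this receptor, had differences of 0.06 with IL-22 and -0.18 in the knockout, and Cyp1a2, a mainly hepatic member, had 1 or 2 reads in each library.

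Cyp26b1 (chromosome 6, 84571414 to 84593908), which clears retinoic acid, was at 2.79 FPKM with PBS and 1.24 with IL-22, a difference of -0.76. That is an estimated 221 and 142 reads and a ratio of 0.445 after depth (0.358 to 0.552). In the HDM table Cyp26b1 was at 2.96 FPKM in the wild type and 2.66 in the knockout. Its relatives Cyp26a1 and Cyp26c1 had at most 1 read in a library. Of 12 expressed genes of retinoid and vitamin D signalling none passed the size rule with IL-22 (median 0.00). The retinol esterifying enzyme Lrat was at 14.3 against 9.67 FPKM, and the binding protein gene Crabp1 at 2.04 against 3.54. In the HDM pair none of 11 passed, with a median of -0.01.

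Cyp2e1 (chromosome 7, 140763739 to 140774987), which oxidizes ethanol and small solvents and is also expressed in fat, was at 17.0 FPKM with PBS and 26.8 with IL-22, a difference of 0.63. Fat cell markers were higher in 6 of the 8 expressed with IL-22, with a median of 1.20 and a summed level of 295 against 624 FPKM, Cfd (adipsin) among them at 118 against 239. In the HDM pair, where Cyp2e1 was at 7.67 in wild type and 6.73 in the knockout, fat cell markers were lower in 4 of 7 (median -1.16), with a summed level of 197 against 113 FPKM. The fat marker Ucp1 was at or near 0 throughout and Lep reached at most 0.486 FPKM. Muscle markers moved the same way: with IL-22 all 9 smooth muscle markers (median 0.82) and all 10 heart muscle markers (median 0.48) lay above 0, with summed levels of 560.2 against 1091 FPKM and 772 against 1132. In the HDM pair 8 of 9 heart muscle markers were lower (median -1.42), and all 9 smooth muscle markers lay below 0 (median -0.37). The part of fat and muscle tissue in the value of Cyp2e1 was not tested.

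The most abundant P450s lay on both sides of 0 with IL-22. Cyp2s1 had a difference of 0.17 and Cyp2a5 one of -0.01. Cyp2f2 had a difference of -0.24, Cyp2b10 of -0.38 and Cyp2d22 of -0.23, and Cyp4b1 one of -0.08, whose sign changed when both libraries were scaled to a common total. Cyp2b13 was at 3.02 FPKM with PBS and 1.72 with IL-22, a difference of -0.56. The club cell genes Scgb1a1 and Cbr2 had differences of -0.33 and -0.35, but the median of the club cell list was 0.05, with Scgb3a1 at 0.75. Cyp27a1 was at 7.33 against 5.06 FPKM, a difference of -0.46, whereas Cyp20a1 and Cyp2j6 had differences of 0.26 and 0.20.

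**Figure D5:**
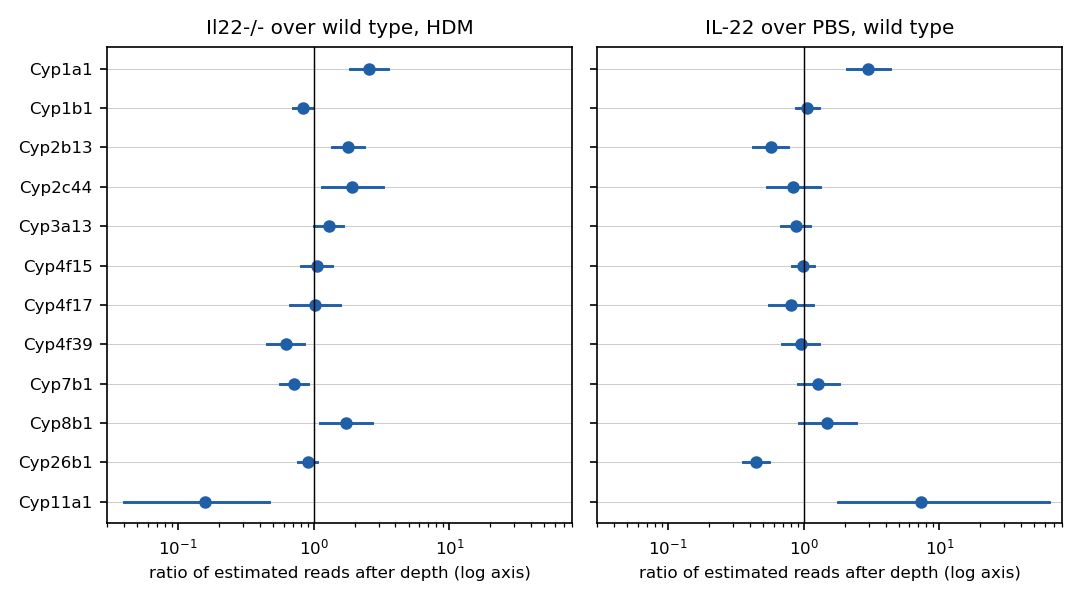
Ratio of estimated reads after depth on a log axis, knockout over wild type (left) and IL-22 over PBS (right), for 11 P450 genes of low level that were expressed in a table and for Cyp11a1, with exact 95% binomial intervals that cover counting error only. The intervals of Cyp1a1 lie above 1 in both panels (1.85 to 3.53 and 2.07 to 4.29), and that of Cyp26b1 lies below 1 with IL-22 (0.358 to 0.552).

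Among the 64 members under the threshold few had enough reads to compare. Cyp11a1, the mitochondrial enzyme that makes pregnenolone from cholesterol, had an estimated 23 reads in the wild-type HDM library and 4 in the knockout, a ratio of 0.159 after depth (0.0400 to 0.465). The PBS and IL-22 libraries held 2 and 21 of its reads, which gives 7.27 (1.78 to 64.0). The wild-type HDM and the IL-22 libraries were the high ones of their tables, at 0.483 and 0.374 FPKM. It was singled out after its values were seen. Cyp2g1, a P450 of olfactory mucosa, had 8 reads in wild type, but in the knockout it was listed at 0, where 3 reads, the limit that a count of 0 allows, would be 0.0648 FPKM. With PBS and IL-22 it had 6 reads in each. Cyp4a32, which shares 46.8% of its 50-base words with other genes, had 4 and 18 reads in the HDM pair. For Cyp2r1, a vitamin D 25-hydroxylase, the 26 and 24 reads there gave 0.844 (0.464 to 1.53), and a difference could not be detected at this depth.

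P450 partners and the P450s with other symbols were measured as a list. Of 11 expressed genes none was higher and 2 were lower in the knockout HDM library, with a median of 0.13. The 2 were Tbxas1, the thromboxane synthase of platelets and macrophages, at 9.16 FPKM against 2.92 in the knockout, and Cyp51, the sterol 14-demethylase, at 17.8 against 8.18. Prostacyclin synthase (Ptgis) was on the other side, at 30.6 against 43.6. Por, the reductase that feeds electrons to microsomal P450s, was at 138 against 152 FPKM. With IL-22 none of the 11 passed the size rule (median -0.05), and Por was at 270 against 224.

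Of the receptors and regulators that control P450 genes 6 of 12 were expressed in each table and none passed the size rule, with medians of 0.14 in the HDM pair and 0.09 in the other. Ahr, the aryl hydrocarbon receptor itself, had a difference of 0.46 in the knockout (8.73 against 12.3 FPKM) and 0.16 with IL-22. Of other known targets of that receptor, Tiparp had differences of 0.10 and 0.12, and the aldehyde dehydrogenase Aldh3a1 had 0.26 and 0.57. Further targets among the listed enzymes did not lie above 0 in both tables. Nqo1 had 0.25 and -0.15, Ugt1a6a had -0.15 and 0.39, and Gsta1 had 0.05 and -0.14. The repressor Ahrr was at or below 0.0457 FPKM in all 4 libraries. Nr1i3, the gene of CAR, reached at most 0.132 FPKM, and Hnf4a, a liver regulator, was at or near 0.

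Other enzymes of drug metabolism kept within the size rule as well. Of 21 expressed phase I enzymes none was higher or lower in either table, with medians of 0.10 and -0.02. The flavin monooxygenase Fmo2 had a difference of 0.92 in the knockout (166 against 314 FPKM), and the alcohol dehydrogenase Adh1 one of 0.78. With IL-22 Aldh3a1 was at 16.1 against 24.3 FPKM. Of 23 conjugating enzymes none passed in either table (medians 0.01 and -0.07). The sulfotransferase Sult1a1 was just short of the rule in the knockout, at 42.0 against 83.2 FPKM, with Gsto1 at -0.77, and Sult1d1 had the largest difference with IL-22, 0.76. Among 12 other genes of arachidonate metabolism Hpgd was higher in the knockout (301 against 696 FPKM) and Alox15 lower (5.35 against 0.363), with a median of -0.34. With IL-22 none of these 12 passed, and the median was 0.00.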

How the data were processed

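Lung RNA of 4 mouse groups was analysed, 1 library each, grouped by sample title. The authors' deposited values are FPKM per gene, in 2 tables; per the submitters' processing notes CASAVA 1.8.2, TopHat2, Cufflinks 2.2.1 and mm10 were used, with settings not given in the sources. The unit was read from the values and tools, since the headers do not name it. Rows (23746 per table) were joined on symbol and accession, 25 symbols turned into dates were restored by accession, and rows of a symbol were added, which left 23284 genes. Reads were estimated from the whole-read steps of low values with GENCODE M21 lengths less 200 bases; 65.7% of 6053 low values lay at most 0.1 from a whole number, beside 20% by chance. Read ratios have exact (Clopper-Pearson) 95% intervals. No test between groups was possible. Members, lists and rules were chosen with earlier results of these data known. The naming rule gave full values for members of at least 20 FPKM, those past or nearest the thresholds, and up to 3 genes per pathway list; further members are examples. The differences and the size rule were tested on simulated data, with changes of 4-fold planted in genes of at least 5 FPKM. Changes nearer the size rule or in lower genes were not planted, and spread between animals was not simulated. The other steps were not tested in this way. Alternatives were another pseudocount, scaling, filter, size rule and row handling. The software was scipy 1.17.1, pandas 2.3.3, numpy 2.4.6 and matplotlib 3.10.9 under Python 3.11.15.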

Additional observations from a re-analysis of the deposited data

How the results depend on the processing

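With a pseudocount of 0.1 FPKM, 1 P450 gene was higher in the knockout (Cyp1a1, 1.26), and with IL-22 1 was higher (Cyp1a1, 1.46) and 1 lower (Cyp26b1, -1.11). With a size rule of 1.5-fold on FPKM + 1 values, 5 P450 genes were higher in the knockout, beside 3.23% of all genes. They were Cyp1a1, Cyp2b10, Cyp2b13, Cyp2d22 and Cyp2f2. In the same pair 1 was lower (Cyp4f18), beside 6.41% of all genes. With IL-22 2 were higher (Cyp1a1 and Cyp2e1), beside 1.96%, and 1 was lower (Cyp26b1), beside 0.461%. Without a filter all 92 members enter each table, and at a mean FPKM of at least 5 there are 15 in the HDM pair and 16 in the other; the P450 median of the HDM pair is then 0.24. These shifts follow from which genes enter and where the rule lies. Scaling by the median ratio changed the sign of 2 of 27 differences in each table, Cyp4f13 and Cyp4f17, and Cyp4f16 and Cyp4f18. Scaling to a common total changed that of 6 with IL-22 (Cyp2a4, Cyp2a5, Cyp4b1, Cyp4f15, Cyp4f39 and Cyp4v3), where it moved the median of all genes to 0.13. Neither scaling put a P450 gene past the size rule. No paired analysis was possible because each group has 1 library, and no replicate could be left out. Depth limits members of few reads, and spread between animals was not measured.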

Other observations

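Of 10 Cyp symbols outside the naming pattern, Cyp4a12a and Cyp4a12b, near-identical fatty acid omega-hydroxylases, were the only ones besides Cyp51 above 0.2 FPKM. Cyp4a12b was at 0.565 FPKM for wild type and 0.325 for the knockout after HDM, 0.455 with PBS and 1.14 with IL-22, and Cyp4a12a at 0.162, 0.0576, 0.292 and 0.599.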
